A study of Mus musculus with 6 samples.

Results

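The core genes of non-homologous end joining were examined in RNA from mouse bone marrow stem cells that did or did not make a truncated epidermal growth factor receptor. The set was chosen by gene symbol and held 10 genes, Prkdc, Xrcc5, Xrcc6, Xrcc4, Lig4, Nhej1, Dclre1c, Paxx, Poll and Polm, of 50763 symbols in the count table. All 10 were found and all 10 passed the filter on low counts, which left 19313 genes. RNA had been sequenced in bulk from CD34- KSL cells, a lineage-negative marrow fraction that carries c-Kit and Sca-1 and is enriched for long-term haematopoietic stem cells. Every mouse carried Tal1-tTA, a transactivator that doxycycline blocks and that is driven by control elements of the blood stem cell gene Tal1, together with the responder transgene TRE-EGFR-tr. The EGFR-DN mice (n = 3 libraries) received no doxycycline and by design made the receptor without its cytoplasmic kinase domain beside the wild-type one. The EGFR-WT mice (n = 3 libraries) drank doxycycline at 0.2 g/L and by design made the wild-type receptor alone. Transgene expression and drug exposure therefore cannot be told apart. The sources give no age or sex and do not say whether animals were pooled, and p-values measure the spread between these libraries, which may be partly technical.

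Non-homologous end joining rejoins the ends of a broken chromosome without a homologous template, and it is the main route of break repair in cells that are not replicating, such as resting stem cells. The Ku heterodimer (Xrcc6 and Xrcc5) threads onto the ends and recruits the kinase DNA-PKcs (Prkdc), the nuclease Artemis (Dclre1c) trims or opens them, and the polymerases lambda and mu (Poll, Polm) fill short gaps. XRCC4 and DNA ligase IV (Xrcc4, Lig4) seal the break, helped by the structurally related scaffolds XLF (Nhej1) and PAXX (Paxx). The same machinery completes V(D)J recombination in lymphocyte precursors, and loss of DNA-PKcs activity underlies the scid mouse.

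Egfr, the gene of the receptor, was read first as a check of the labels. It had 4022, 4758 and 991 counts in EGFR-DN and 6 counts in each EGFR-WT library (edgeR log2 fold change 9.01, adjusted p = 0.00981), and it was the 1 gene of 19313 past the threshold of 0.05. Reads from the transgene and from the resident gene cannot be told apart. Total counts per library ranged from 24073133 to 36032428, and CPM below are counts scaled to the library total times a trimmed-mean (TMM) factor, which was 0.820 in EGFR-DN replicate 3 and at least 1.03 in the other libraries. On that scale 3 counts correspond to 0.0799 to 0.152 CPM (counting error only). Egfr in EGFR-WT, at 0.191, 0.160 and 0.237 CPM, lay little above that, so transcripts of the resident gene were barely detected there. Among the markers of the sorted fraction, Kit had at least 736 CPM and Ly6a, which encodes Sca-1, at least 46.7 CPM in every library. Cd34 transcripts, whose product the gate selects against, were at 569, 534 and 378 CPM in EGFR-DN and 318, 410 and 404 CPM in EGFR-WT. Procr, a surface marker of long-term stem cells, was at 22.9, 32.4 and 15.1 CPM in EGFR-DN and 74.9, 43.0 and 50.4 CPM in EGFR-WT. Its log2 fold change was −1.25 (edgeR adjusted p = 0.690, DESeq2 adjusted p = 0.0495, in a DESeq2 fit that called 0.699% of genes). Slamf1, another such marker, overlapped between the groups, at 15.2, 22.3 and 33.4 CPM in EGFR-DN and 35.1, 17.5 and 24.3 CPM in EGFR-WT. EGFR-DN replicate 3 stood apart, with 25.4% of its counts in 8 rRNA-like genes against 4.71% to 6.15% in the other libraries. Results for the core genes are given with and without it. In bulk RNA, a change in the number of cells of a type and a change in RNA per cell cannot be told apart.

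Xrcc5, Xrcc6 and Xrcc4 were the genes whose groups stayed apart with nearly the same difference when EGFR-DN replicate 3 was left out, Xrcc6 above EGFR-WT and the others below on the TMM scale, and the windows around their starts are shown for that reason. Each sequence runs 5′ to 3′ from 250 bases before to 50 bases after a gene start in RefSeq (build GRCm38.p6, an earlier build than the one named for the counts). The Xrcc5 window is chr1:72307171-72307470 on the plus strand, the Xrcc6 window chr15:82016119-82016418 on the plus strand and the Xrcc4 window chr13:90089559-90089858 on the minus strand. Capitals mark matches, on either strand, to the GC box GGGCGG, to the CCAAT box and to the E box CACGTG. The TATA box TATAAA was searched too and had 0 matches in these windows, and no matches overlapped.
Xrcc5: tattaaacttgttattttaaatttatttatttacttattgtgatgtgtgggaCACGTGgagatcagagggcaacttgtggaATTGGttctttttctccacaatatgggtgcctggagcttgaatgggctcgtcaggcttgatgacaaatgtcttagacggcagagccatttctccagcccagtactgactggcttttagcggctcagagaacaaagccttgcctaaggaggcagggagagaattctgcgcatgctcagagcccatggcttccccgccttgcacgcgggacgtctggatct
Xrcc6: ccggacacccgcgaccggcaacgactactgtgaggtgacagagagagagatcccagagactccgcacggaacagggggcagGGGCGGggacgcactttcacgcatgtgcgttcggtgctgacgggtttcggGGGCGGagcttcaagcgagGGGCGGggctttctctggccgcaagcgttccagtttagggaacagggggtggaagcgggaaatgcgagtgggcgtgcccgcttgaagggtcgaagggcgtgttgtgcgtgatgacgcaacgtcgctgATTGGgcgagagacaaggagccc
Xrcc4: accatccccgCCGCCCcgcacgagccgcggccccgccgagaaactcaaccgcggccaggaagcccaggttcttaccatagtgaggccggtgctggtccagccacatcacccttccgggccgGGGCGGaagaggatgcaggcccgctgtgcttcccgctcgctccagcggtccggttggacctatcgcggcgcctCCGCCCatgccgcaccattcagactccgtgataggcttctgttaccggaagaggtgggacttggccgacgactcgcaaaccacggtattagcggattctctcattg
The Xrcc6 and Xrcc4 windows each held 3 GC boxes, and the Xrcc5 window held 0. Of 32851 RefSeq windows of the same length, 35.7% hold a GC box, 37.4% CCAAT, 7.15% the E box and 13.6% TATAAA. The G+C share was 48.0% for Xrcc5, 64.3% for Xrcc6 and 65.7% for Xrcc4, with 9, 30 and 31 CpG dinucleotides. These matches are letters only, and binding was not measured. RefSeq windows were listed for 8 of the 10 genes.

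The comparison of EGFR-DN with EGFR-WT asks whether end joining transcripts differ when the truncated receptor is made. In 4 of the 10 genes the libraries of the 2 groups did not overlap in CPM. Prkdc and Xrcc6 lay above EGFR-WT in every EGFR-DN library, and Xrcc5 and Xrcc4 lay below it in every EGFR-DN library. Scaled by library totals alone, an alternative chosen after seeing the data, Prkdc, Xrcc5 and Xrcc4 stayed apart and Xrcc6 overlapped, so that 3 of the 10 were apart, beside 18.3% of all tested genes. With TMM factors, over all tested genes, 17.9% had groups that did not overlap, 9.21% with EGFR-DN above and 8.72% with EGFR-DN below. By edgeR 0 of the 10 passed the threshold after adjustment over all tested genes, where 0.00518% of genes did. At an unadjusted p under 0.05 there were 2 of the 10, beside 6.69% of all tested genes. Of these 1 lay higher (Prkdc) and 1 lower (Xrcc4), beside 4.3% and 2.4%. DESeq2 also called 0 of the 10, where it called 0.699% of genes, and limma-voom called 0 of the 10 and 0 genes in all (1187 at an unadjusted p under 0.05). Without EGFR-DN replicate 3, edgeR again called 0 of the 10, beside 0.286% of genes. An unadjusted p under 0.05 was then met by 5 of the 10 (Prkdc, Xrcc5, Xrcc6, Xrcc4 and Poll), beside 13.6%, and the groups were apart in 6 of the 10, beside 32.2%. The median log2 fold change of the 10 was −0.06, beside 0.0099 over all tested genes, and the median of its absolute size was 0.20 beside 0.27. Added together on the TMM scale, the 10 genes took 264, 253 and 279 CPM in EGFR-DN and 243, 243 and 232 CPM in EGFR-WT. The higher EGFR-DN sums on that scale came from Xrcc6 and Prkdc, with Prkdc at 66.3 CPM in EGFR-DN replicate 3. By library totals alone the sum was lowest in EGFR-DN replicate 3, so the groups overlapped. Of the 10 log2 fold changes, 4 lay above 0 and 6 below.

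**Figure D1:**
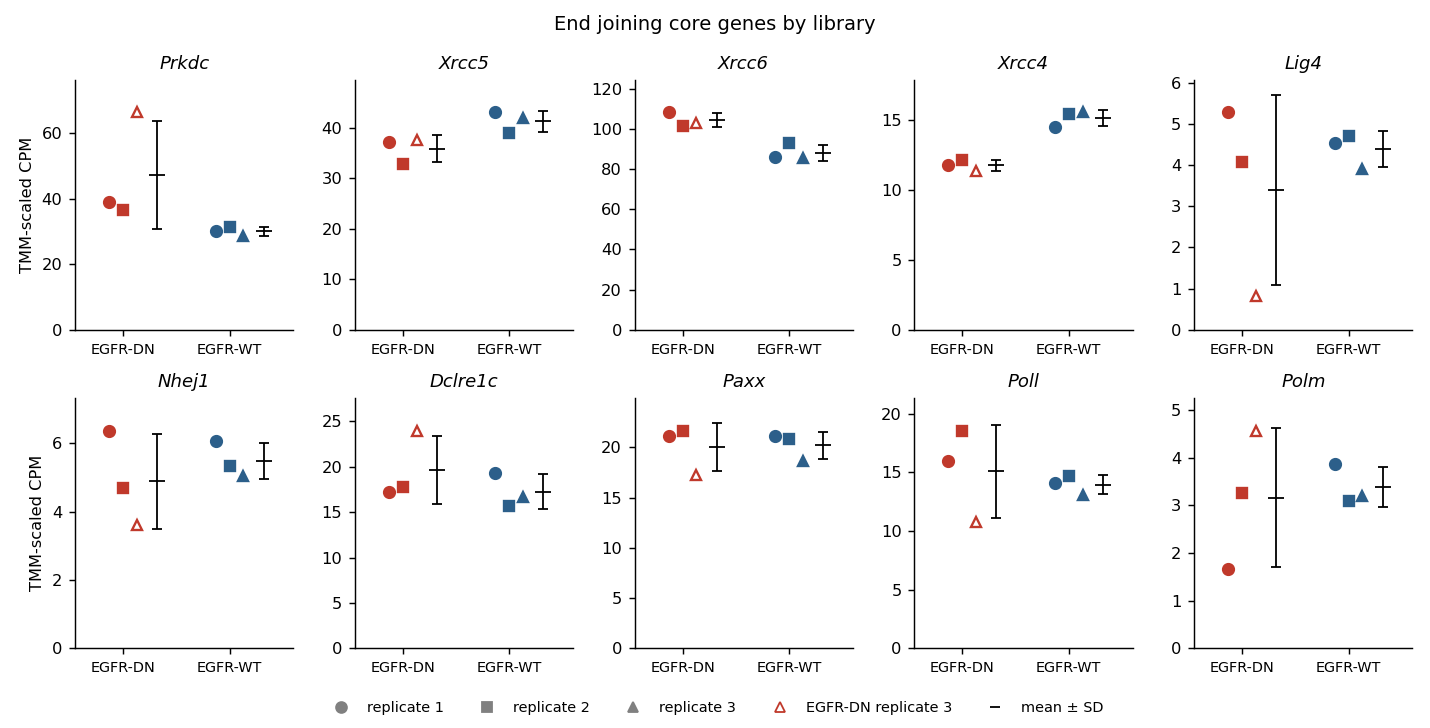
TMM-scaled CPM (y axis, from 0) of the 10 end joining core genes in each library. Red symbols are EGFR-DN, blue symbols EGFR-WT, marker shapes are replicate numbers, the open triangle is EGFR-DN replicate 3, and black bars are mean ± SD (n = 3 each). The groups are apart in Prkdc, Xrcc5, Xrcc6 and Xrcc4 and overlap in the other 6 panels.

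Xrcc6, which encodes Ku70, was the most abundant core gene. Its level was 108, 101 and 103 CPM in EGFR-DN and 86.1, 92.8 and 85.4 in EGFR-WT. With TMM factors the 3 EGFR-DN libraries lay close together and all above the highest EGFR-WT library. By library totals alone they were at 112.1, 104.5 and 84.4 CPM and EGFR-WT at 90.3, 96.6 and 88.7 CPM, so that EGFR-DN replicate 3 lay below EGFR-WT and the separation was lost (edgeR log2 fold change 0.13, unadjusted p = 0.488). The mean was 104 ± 3.53 CPM in EGFR-DN and 88.1 ± 4.08 CPM in EGFR-WT (SD, n = 3 each), 1.18 times the EGFR-WT mean. The log2 fold change was 0.24 (SE 0.13, 95% interval −0.07 to 0.55, edgeR adjusted p = 0.690). Without EGFR-DN replicate 3 it was 0.25 (SE 0.07, edgeR adjusted p = 0.186).

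Xrcc5, which encodes Ku80, lay on the other side. Its CPM was 37.2, 32.7 and 37.5 in EGFR-DN and 43.0, 38.9 and 41.8 in EGFR-WT. The gap between the groups was small, 37.5 CPM in the highest EGFR-DN library against 38.9 CPM in the lowest EGFR-WT library. Its log2 fold change was −0.20 (SE 0.14, 95% interval −0.52 to 0.11, edgeR adjusted p = 0.690), and −0.24 (SE 0.09, adjusted p = 0.306) without EGFR-DN replicate 3.

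Because Ku70 and Ku80 act as an obligate pair, the ratio of their counts was taken within each library, where scaling between libraries drops out. There were 0.344, 0.323 and 0.364 Xrcc5 counts per Xrcc6 count in EGFR-DN and 0.50, 0.420 and 0.490 in EGFR-WT. All 3 EGFR-DN ratios lay below all 3 EGFR-WT ratios, replicate 3 included. With TMM factors Xrcc5 already lay below EGFR-WT and Xrcc6 above it in every EGFR-DN library. The separation of the ratio follows from those values and is not separate support. The share of other gene pairs with separate ratios was not computed. On the log2 scale the EGFR-DN ratio was −1.54 ± 0.09 and the EGFR-WT ratio −1.09 ± 0.14 (SD, 3 libraries each), a difference of −0.45, or 0.733 times the EGFR-WT ratio. The two-sided exact permutation test gave p = 0.1, the smallest that 20 arrangements of 3 against 3 libraries allow, and 0.25 after Benjamini-Hochberg adjustment over 5 ratios. The difference was −0.49 without EGFR-DN replicate 3. Scaled by transcript length, Xrcc5 stood at 0.444, 0.417 and 0.470 of Xrcc6 in EGFR-DN and 0.645, 0.541 and 0.632 of it in EGFR-WT.

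Prkdc, the gene of the DNA-PKcs kinase, had the largest log2 fold change of the 10 with all libraries, but not without EGFR-DN replicate 3, where Polm and Xrcc4 were larger in size, or with the length offset described below, where Lig4, Xrcc4 and Xrcc6 were. Its CPM was 38.9, 36.6 and 66.3 in EGFR-DN and 30.2, 31.4 and 28.5 in EGFR-WT. All EGFR-DN libraries lay above EGFR-WT, and replicate 3 lay far above the other EGFR-DN libraries. The mean was 47.3 ± 16.5 CPM in EGFR-DN and 30.0 ± 1.44 CPM in EGFR-WT (SD, n = 3 each). The log2 fold change was 0.65 (SE 0.25, 95% interval 0.07 to 1.23, unadjusted p = 0.0322, edgeR adjusted p = 0.690). Without EGFR-DN replicate 3 it was 0.32 (SE 0.08, unadjusted p = 0.00511, edgeR adjusted p = 0.170). DESeq2 on the same 5 libraries gave Prkdc 0.33 (adjusted p = 0.0351) and Xrcc6 0.25 (adjusted p = 0.0454), the 2 core genes it called, in a fit that called 4.44% of all genes and was chosen after seeing the data.

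Dclre1c, which encodes Artemis, the nuclease that DNA-PKcs activates, overlapped between the groups. Its CPM was 17.2, 17.8 and 23.9 in EGFR-DN and 19.3, 15.6 and 16.7 in EGFR-WT. Replicate 3 was again the high EGFR-DN library, and the other EGFR-DN libraries fell within the EGFR-WT range. Its log2 fold change was 0.19 (SE 0.19, 95% interval −0.26 to 0.64, edgeR adjusted p = 0.733) and 0.02 without EGFR-DN replicate 3. There were 2.26, 2.06 and 2.77 Prkdc counts per Dclre1c count in EGFR-DN and 1.56, 2.01 and 1.71 in EGFR-WT. These groups did not overlap either (difference in log2 ratio 0.42, two-sided exact permutation p = 0.1, adjusted p = 0.25), although EGFR-DN replicate 2 and EGFR-WT replicate 2 were nearly level. The difference was 0.30 without EGFR-DN replicate 3. A ratio within a library does not remove a difference between libraries that goes with transcript length. Prkdc and Dclre1c transcripts are 12.6 and 2.47 kb. In the length classes described below, the EGFR-DN replicate 3 medians were 1.08 for that of Prkdc and −0.12 for that of Dclre1c.

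Xrcc4, the scaffold that holds DNA ligase IV, was the other gene with separate groups. Its CPM was 11.8, 12.2 and 11.4 in EGFR-DN and 14.5, 15.4 and 15.6 in EGFR-WT. It averaged 11.8 ± 0.419 CPM in EGFR-DN and 15.2 ± 0.573 CPM in EGFR-WT (SD, n = 3 each), and its mean was 0.776 times the EGFR-WT mean. The log2 fold change was −0.36 (SE 0.15, 95% interval −0.72 to −0.01, unadjusted p = 0.0441, edgeR adjusted p = 0.690). Without EGFR-DN replicate 3 it was −0.34 (SE 0.11, unadjusted p = 0.0181, edgeR adjusted p = 0.258), so the size was nearly the same without that library.

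Lig4, which encodes the ligase itself, was low in 1 library. It had 181, 144 and 16 counts in EGFR-DN and 143, 177 and 99 counts in EGFR-WT, or 5.28, 4.08 and 0.811 CPM in EGFR-DN and 4.54, 4.72 and 3.90 CPM in EGFR-WT. EGFR-DN replicate 1 lay just above the EGFR-WT range and replicate 2 within it, and replicate 3 lay far below it. The log2 fold change was −0.36 (SE 0.58, 95% interval −1.73 to 1.01, edgeR adjusted p = 0.803) and turned to 0.09 (SE 0.21, adjusted p = 0.909) without replicate 3. There were 2.23, 2.98 and 13.6 Xrcc4 counts per Lig4 count in EGFR-DN and 3.19, 3.26 and 3.97 in EGFR-WT. With all libraries the log2 ratio differed by 0.38 (two-sided exact permutation p = 1.0), and without EGFR-DN replicate 3 by −0.42, with every remaining EGFR-DN ratio below EGFR-WT.

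Nhej1 (XLF) and Paxx, the scaffolds that bridge the ends, showed no separation. Nhej1 had 6.36, 4.68 and 3.6 CPM in EGFR-DN and 6.07, 5.33 and 5.05 CPM in EGFR-WT (log2 fold change −0.16, 95% interval −0.80 to 0.48). Paxx had 21.2, 21.6 and 17.2 CPM in EGFR-DN and 21.1, 20.9 and 18.7 CPM in EGFR-WT (log2 fold change −0.01, 95% interval −0.39 to 0.36). Replicate 3 was the lowest library for both genes. Without it the values were 0.0046 for Nhej1 and 0.08 for Paxx, and the edgeR adjusted p with all libraries was 0.807 and 0.975. The Nhej1 to Paxx count ratio was 0.301, 0.217 and 0.210 in EGFR-DN and 0.288, 0.256 and 0.271 in EGFR-WT, and the groups overlapped (two-sided exact permutation p = 0.4).

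Poll and Polm, the gap-filling polymerases, overlapped between the groups. Poll had 15.9, 18.5 and 10.8 CPM in EGFR-DN and 14.1, 14.7 and 13.1 CPM in EGFR-WT. EGFR-DN replicates 1 and 2 lay above all EGFR-WT libraries and replicate 3 below them. Polm had 1.66, 3.26 and 4.56 CPM in EGFR-DN and 3.88, 3.09 and 3.19 CPM in EGFR-WT, with replicate 1 low and replicate 3 high. The log2 fold changes were 0.11 (95% interval −0.42 to 0.65, edgeR adjusted p = 0.834) for Poll and −0.11 (95% interval −1.02 to 0.81, adjusted p = 0.914) for Polm. Without EGFR-DN replicate 3 they were 0.30 (SE 0.12, edgeR adjusted p = 0.348) and −0.46 (SE 0.33, adjusted p = 0.603). There were 9.50, 5.66 and 2.35 Poll counts per Polm count in EGFR-DN, a range wider than the 3.63, 4.73 and 4.07 of EGFR-WT (two-sided exact permutation p = 0.7).

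**Figure D2:**
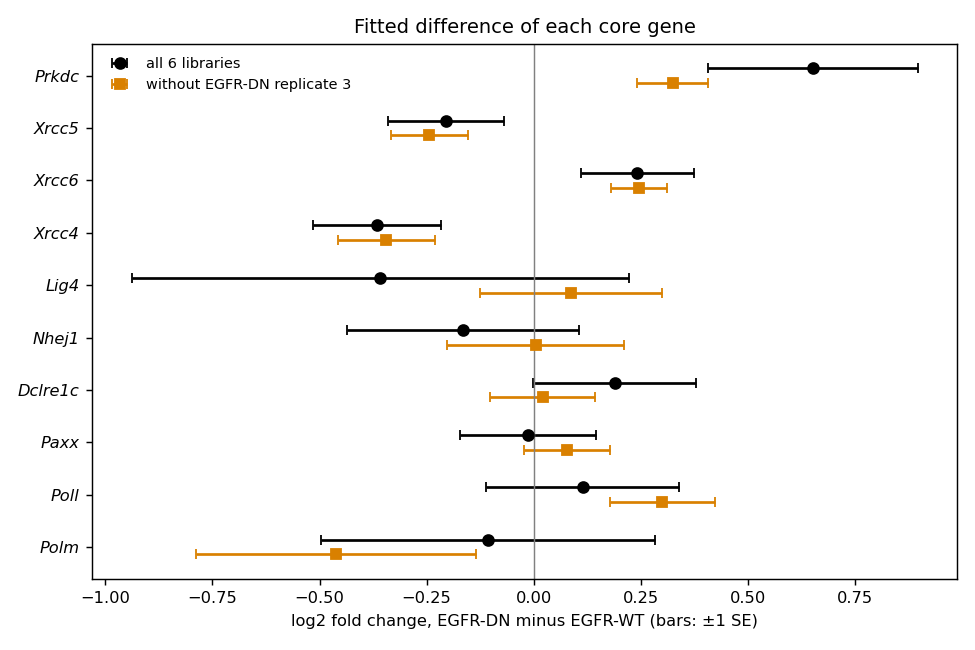
Log2 fold change, EGFR-DN minus EGFR-WT, of each core gene (x axis, bars ±1 SE) in the edgeR fit of all 6 libraries (black circles) and of the 5 libraries without EGFR-DN replicate 3 (orange squares). Xrcc5, Xrcc6 and Xrcc4 keep nearly the same value, Prkdc moves to 0.32, and Lig4, Nhej1 and Paxx cross 0.

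**Figure D3:**
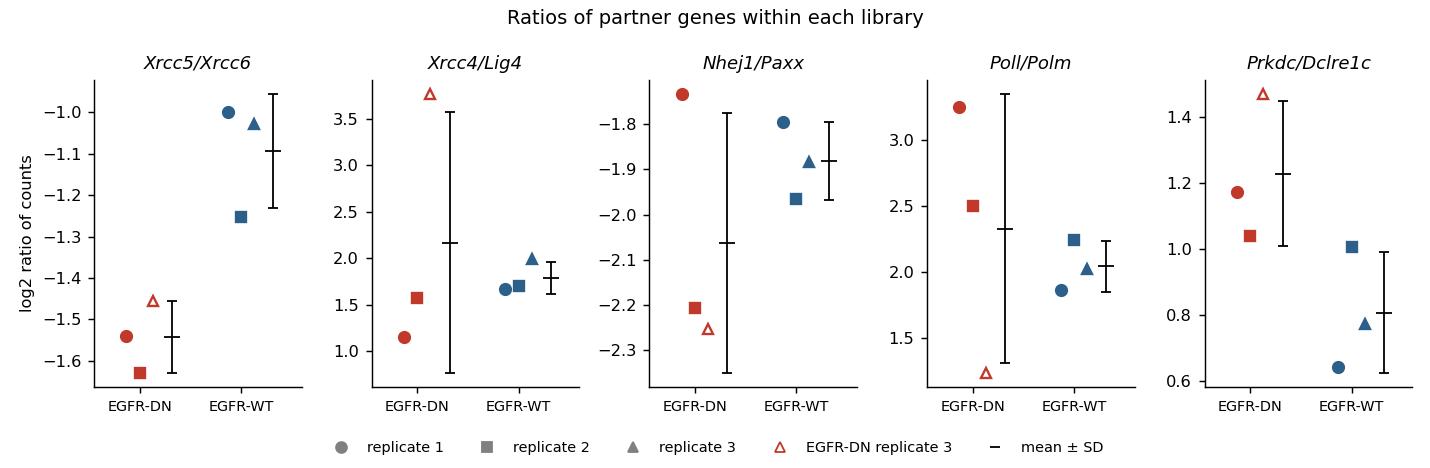
Log2 ratio of counts of 5 gene pairs within each library (y axes differ between panels and do not start at 0). Symbols are as in the plot of CPM by library, and black bars are mean ± SD (n = 3 each). The groups are apart for Xrcc5/Xrcc6 and Prkdc/Dclre1c and overlap for the other pairs.

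Transcript length moved with the values of EGFR-DN replicate 3. Across 14409 tested genes with at least 1 CPM in EGFR-WT and a known length, the median log2 ratio of this library to the EGFR-WT mean ran from −0.67 for transcripts up to 1 kb to 1.08 for those over 10 kb. In EGFR-DN replicates 1 and 2 the same medians lay between −0.02 and 0.02 in all 7 length classes. Prkdc has the longest transcript of the 10, at 12.6 kb. Its log2 ratio in replicate 3 was 1.14, near the median of 246 genes in its length class, of which 48.0% were at or above it. Xrcc5 (−0.14), Xrcc4 (−0.42) and Xrcc6 (0.23) also lay near the middle of their classes, with 51.0%, 50.1% and 39.3% of genes at or above them. Lig4 did not follow its class, since its log2 ratio was −2.44 where the median for 4 to 6 kb was 0.27, and 0.207% of 2411 genes were at or below it. The log2 ratios of single genes carry no pseudocount. The class medians and shares use 0.25 CPM, on which scale Lig4 is less extreme than −2.44. With a per-library offset for transcript length, the log2 fold change of Prkdc was 0.22 (SE 0.14, edgeR adjusted p = 0.666) against 0.65 without it, and the offset fit called 0 genes in all (1263 at an unadjusted p under 0.05). The same offset left Xrcc6 at 0.23, Xrcc5 at −0.19 and Xrcc4 at −0.28. In the 5 libraries without replicate 3, Prkdc was at 0.30 with the offset and 0.32 without it, and that offset fit called 0 of the 10, beside 0.0857% of genes.

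**Figure D4:**
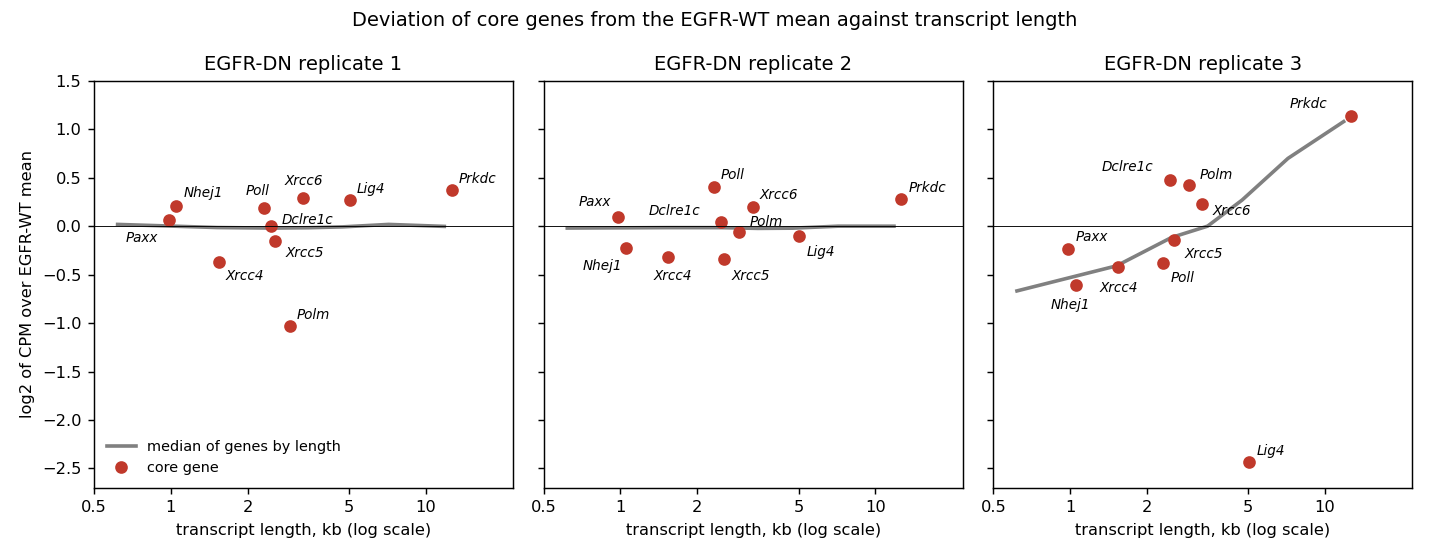
Log2 of CPM over the EGFR-WT mean (y axis) for each core gene (red points) against transcript length in kb (x axis, log scale) in the 3 EGFR-DN libraries. Grey lines are medians of all tested genes with at least 1 CPM in EGFR-WT, in 7 length classes. The lines use a pseudocount of 0.25 CPM that the points do not carry. The line is flat in replicates 1 and 2 and climbs from −0.67 to 1.08 in replicate 3, where Prkdc lies on it and Lig4 far below it.

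Levels were compared between genes as TPM (transcript shares scaled for length), computed from the counts and annotated transcript lengths. In EGFR-WT the order was Xrcc6 (48.4 ± 1.77 TPM), Paxx (37.4 ± 2.54), Xrcc5 (29.3 ± 1.85), Xrcc4 (17.9 ± 0.519), Dclre1c (12.7 ± 1.57), Poll (10.9 ± 0.603), Nhej1 (9.44 ± 1.00), Prkdc (4.31 ± 0.192), Polm (2.10 ± 0.290) and Lig4 (1.58 ± 0.151; SD, n = 3 each). The only neighbours in this order whose libraries overlapped were Poll and Nhej1. In EGFR-DN the first 3 places and the last 3 held the same genes in the same order. Xrcc4 (13.6 ± 0.473 TPM) stood level with Dclre1c (14.1 ± 2.63 TPM) there, and their libraries overlapped. Lig4 was last in both groups, although Polm was last in EGFR-DN when replicate 3 was left out. Scaled by length, Xrcc4 stood at 7.28, 9.73 and 44.4 times Lig4 in EGFR-DN and 10.4, 10.7 and 13 times in EGFR-WT.

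**Figure D5:**
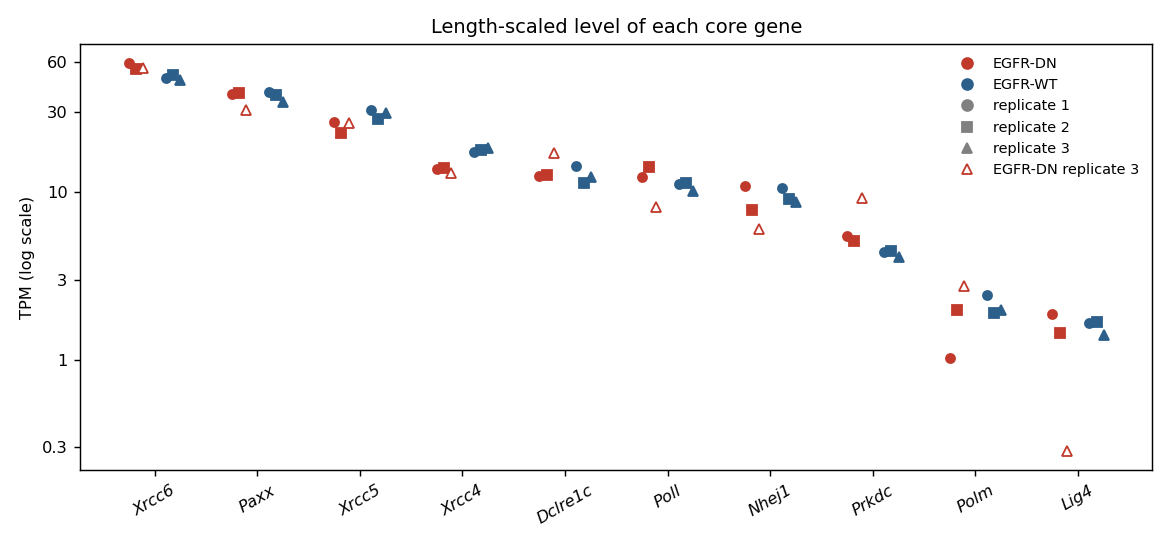
TPM of each core gene (y axis, log scale) in every library, ordered by the EGFR-WT mean. Red symbols are EGFR-DN, blue symbols EGFR-WT, shapes are replicate numbers and open triangles EGFR-DN replicate 3. Levels span from Xrcc6, near 50 TPM, to Lig4, under 2 TPM, and the lowest single point is Lig4 in EGFR-DN replicate 3 (0.286 TPM).

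The genes next to the core genes were read because the library kit does not mark strand and because some lie head to head with a neighbour. In the GRCm38 annotation, Mcm4 (a subunit of the replicative helicase), Tmem167 (a small membrane protein) and Abhd13 start within 1000 bases of Prkdc, Xrcc4 and Lig4, on the other strand. Mcm4 had 216, 177 and 117 CPM in EGFR-DN and 164, 179 and 184 CPM in EGFR-WT, so it overlapped between the groups where Prkdc did not. Tmem167 had 73.6, 75.5 and 62.0 CPM in EGFR-DN and 73.2, 74.2 and 78.8 CPM in EGFR-WT, also overlapping where Xrcc4 was below. Abhd13 had 28.1, 30.0 and 17.0 CPM in EGFR-DN and 29.2, 30.9 and 29.7 CPM in EGFR-WT, lowest in the library where Lig4 was lowest. Genes that overlap Xrcc6, Dclre1c and Paxx on the other strand, whose reads may be mixed with theirs, were Desi1, Suv39h2 and Clic3, and all 3 overlapped between the groups. Desi1 ranged from 28.4 to 37.9 CPM in EGFR-DN and 26.4 to 32.6 CPM in EGFR-WT, Suv39h2 from 13.1 to 14.5 CPM in EGFR-DN and 11.5 to 15.9 CPM in EGFR-WT, and Clic3 from 0.408 to 1.27 CPM in EGFR-DN and 0.381 to 0.879 CPM in EGFR-WT. The antisense gene Gm4117 within Xrcc4 had 0.292, 0.425 and 1.83 CPM in EGFR-DN and at most 0.613 CPM in EGFR-WT.

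Other repair genes gave the setting for the core. By count, of 10 accessory and end-processing genes, 16 genes of break signalling and end protection, 9 of alternative end joining and 15 of homologous recombination, 0 passed by edgeR and by DESeq2, and 0 had an unadjusted p under 0.05. Over all tested genes these shares were 0.00518%, 0.699% and 6.69%. Their median log2 fold changes were 0.05, 0.08, 0.13 and 0.06. Among the most abundant members, Wrn, a helicase that Ku binds, had 74.8, 69.2 and 73.6 CPM in EGFR-DN and 72.7, 70.3 and 74.8 CPM in EGFR-WT. Tdp2, which removes trapped topoisomerase from ends, lay below without overlap, at 49.5, 46.7 and 41.9 CPM in EGFR-DN against 54.9, 50.4 and 56.7 CPM in EGFR-WT (log2 fold change −0.23, edgeR adjusted p = 0.690). In these lists Nbn also lay below without overlap, and H2ax, Parp2, Rbbp8, Brca1 and Rad51c above, all named after their values were seen. Groups were apart in 17.9% of all tested genes. Parp1, a break sensor of alternative end joining, had 206, 178 and 135 CPM in EGFR-DN and 167, 187 and 164 CPM in EGFR-WT, lowest in EGFR-DN replicate 3. The replication enzymes Lig1 and Fen1 were lowest in that library too. Lig1 averaged 148 ± 37.2 CPM in EGFR-DN and 156 ± 5.18 CPM in EGFR-WT, and Fen1 128 ± 43.1 CPM in EGFR-DN and 135 ± 12.1 CPM in EGFR-WT (SD, n = 3 each). Their log2 fold changes of −0.07 and −0.08 turned to 0.11 and 0.17 without EGFR-DN replicate 3.

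Atm, Rif1 and Brca2, with transcripts of 9.79, 8.51 and 10.7 kb, were highest in EGFR-DN replicate 3, as Prkdc was. Atm, the kinase that signals breaks, had 76.3, 77.5 and 202 CPM in EGFR-DN and 80.3, 67.3 and 80.8 CPM in EGFR-WT. Rif1, which protects ends from resection, had 139, 138 and 189 CPM in EGFR-DN against 145, 122 and 148 CPM in EGFR-WT. Brca2, a core recombination gene, had 52.3, 54.6 and 147 CPM in EGFR-DN against 56.7, 43.8 and 45.3 CPM in EGFR-WT. All 3 overlapped between the groups. Rad50, a part of the end-binding MRN complex, averaged 97.7 ± 19.6 CPM in EGFR-DN and 108 ± 4.57 CPM in EGFR-WT. Not every gene of these lists went with length in this way. Rad50 (5.15 kb) was lowest in EGFR-DN replicate 3, at 75.2 CPM. Exo1 (7.80 kb) was also lowest there, at 22.4 CPM, and H2ax (1.38 kb) highest, at 103 CPM, both named after their values were seen. The part of length in these values was not tested. Of the recombination genes Rad54l and Rad51d, Rad54l averaged 62.5 ± 14.3 CPM in EGFR-DN and 60.9 ± 4.47 CPM in EGFR-WT, and Rad51d 44.6 ± 4.50 CPM in EGFR-DN and 43.4 ± 3.40 CPM in EGFR-WT (SD, n = 3 each). The log2 fold change was 0.64 for Atm, 0.17 for Rif1 and 0.80 for Brca2 with all libraries, and 0.01, −0.0004 and 0.13 without EGFR-DN replicate 3. For Rad50 it was −0.15 with all libraries and 0.007 without that one.

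V(D)J recombination genes hand their breaks to this machinery. Of 4 tested, 0 passed by edgeR, beside 0.00518% of all tested genes. An unadjusted p under 0.05 was met by 2, beside 6.69%, and 1, Rag2, passed by DESeq2 (adjusted p = 0.0156), beside 0.699%. Rag2, a recombinase subunit, had 9.07, 6.78 and 8.77 CPM in EGFR-DN and 3.49, 2.77 and 4.65 CPM in EGFR-WT, without overlap (log2 fold change 1.17, SE 0.27, edgeR adjusted p = 0.690). Its partner Rag1, named after its values were seen, was low, at 0.974 ± 0.332 CPM in EGFR-DN and 0.386 ± 0.247 CPM in EGFR-WT (SD, n = 3 each), with overlapping libraries. Its log2 fold change was 1.35 (SE 0.56, edgeR unadjusted p = 0.0455, adjusted p = 0.690). The DNA-bending cofactors Hmgb1 and Hmgb2 overlapped, Hmgb1 at 235 ± 75 CPM in EGFR-DN and 271 ± 1.88 CPM in EGFR-WT, and Hmgb2 at 216 ± 85.2 CPM in EGFR-DN and 244 ± 11.1 CPM in EGFR-WT (SD, n = 3 each). EGFR-DN replicate 3 was the low library for both, and their log2 fold changes of −0.21 and −0.17 turned to 0.03 and 0.12 without it. Dntt, the lymphoid relative of Poll and Polm that adds bases at V(D)J junctions, had 509, 305 and 88.6 CPM in EGFR-DN and 161, 124 and 176 CPM in EGFR-WT. Its log2 fold change was 0.97 (SE 0.55, edgeR adjusted p = 0.690), and 1.4 (SE 0.22, edgeR adjusted p = 0.0600, DESeq2 adjusted p = 0.00108) without EGFR-DN replicate 3.

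Markers of other cells and of cycling were summed in each library, and their part in the values of Prkdc, Xrcc6, Xrcc5 and Xrcc4 was not tested. On the TMM scale the sums were apart between the groups for S phase, neutrophil and monocyte, B lineage, T and NK and stromal genes, and overlapped for the others. The nearest libraries were close for S phase (2463 against 2451 CPM), T and NK (204 against 201 CPM) and stromal genes (82.5 against 81.5 CPM). By library totals alone, the S phase, B lineage and T and NK sums overlapped, since the TMM factor of EGFR-DN replicate 3 was 0.820. The share of other gene sets with separate sums was not computed. The 15 S phase genes together took 2755, 2486 and 2463 CPM in EGFR-DN and 2186, 2451 and 2409 CPM in EGFR-WT, with 9 of 15 above 0 in log2 fold change. For G2/M, 5 of 12 genes lay above 0, and the sums were 1131, 1006 and 1689 CPM in EGFR-DN and 947, 970 and 1012 CPM in EGFR-WT. All 9 lymphoid-primed progenitor genes lay above 0, at 566 to 1204 CPM in sum in EGFR-DN and 450 to 570 CPM in EGFR-WT. Neutrophil and monocyte genes lay above 0 in 12 of 12 tested, at 973 to 1481 CPM in EGFR-DN and 425 to 617 CPM in EGFR-WT, with Ltf at 0 in at least 1 library. For the B lineage it was 6 of 6 tested, at 50.9 to 70.1 CPM in EGFR-DN and 36.5 to 47.8 CPM in EGFR-WT, and Pax5 and Igll1 were at 0 in at least 1 library. For T and NK cells it was 4 of 6, at 204 to 293 CPM in EGFR-DN and 162 to 201 CPM in EGFR-WT, and Cd3e and Cd8a were at 0 in at least 1 library. Of 13 stem cell identity genes 9 lay below 0, with sums of 1621, 1900 and 4232 CPM in EGFR-DN and 2530, 2150 and 2128 CPM in EGFR-WT. Kit alone took 1962 CPM in EGFR-DN replicate 3. The median log2 fold change of these genes was −0.22, and −0.65 without that library. Of these 13 genes 3 had an unadjusted edgeR p under 0.05, all lower, beside 2.4% of all tested genes. DESeq2 called 2 of them, beside 0.699%. Erythroid genes summed to 300.2 to 548 CPM in EGFR-DN and 201 to 345 CPM in EGFR-WT, with 5 of 6 above 0. Megakaryocyte genes summed to 684 to 776 CPM in EGFR-DN and 520 to 951 CPM in EGFR-WT, with 2 of 5 above 0, and stromal or endothelial genes to 82.5 to 166 CPM in EGFR-DN and 63.9 to 81.5 CPM in EGFR-WT, with 3 of 5 above 0. Over all tested genes the median log2 fold change was 0.0099. By edgeR 0 genes of these lists passed. An unadjusted p under 0.05 was met by 9 of 12 neutrophil and monocyte and 6 of 9 lymphoid-primed genes. It was met by 3 of 6 B lineage, 2 of 6 T and NK, 1 of 6 erythroid and 1 of 5 stromal genes. All of these were higher, beside 4.3% of all tested genes. DESeq2 called 3 neutrophil and monocyte, 3 lymphoid-primed and 1 B lineage gene, beside 0.699%.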

How the data were processed

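Bulk RNA was sequenced from sorted marrow cells, 3 EGFR-DN and 3 EGFR-WT libraries, after oligo(dT)-primed SMART-Seq V4 cDNA synthesis from 10 ng of RNA and Nextera XT preparation, with single reads of 75 bases, per the labels' protocols. The values the authors deposited are estimated counts by symbol, unscaled, and 79.4% are whole within 1e-09. DRAGEN, DESeq2 1.40.2, R 4.3.1 and build mm39 are named per the submitters' processing notes. The strand setting and the annotation behind the counts were not stated. The design assumed whole counts, so estimated counts were rounded. Libraries held 24073133 to 36032428 counts, and precision is limited by 3 libraries per group. No library repeated another (chi-square over its degrees of freedom at least 15.8 for each pair), and 0 columns belonged to other samples.

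Genes were filtered with filterByExpr (19313 left), scaled by the trimmed mean of M-values (TMM) and compared in R 4.3.3 by the quasi-likelihood test of edgeR 4.0.16 (two-sided). Adjustment was by Benjamini and Hochberg over all tested genes, with a threshold of 0.05. SE is the size of the log2 fold change over the root of F. Ratios used a pseudocount of 0.5. Lengths came from the principal transcripts of the GRCm38 annotation, for 88.2% of tested genes. The length classes used 14409 genes and a pseudocount of 0.25 CPM. Alternatives were DESeq2 1.42.0, limma 3.58.1 with voom, other scalings and filters, a replicate block, a length offset (loess span 0.3) and each library left out. DESeq2 and the length offset without EGFR-DN replicate 3 were chosen after seeing the data. The scripts were tested on simulated counts. The members, lists, gene pairs and the rule for named genes were chosen with earlier results of these data known. That rule took all members, Egfr, the 3 most abundant genes of each repair list and any past the threshold, defining markers, and overlapping or head-to-head neighbours. Promoter sequences are from RefSeq (GRCm38.p6).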

Additional observations from a re-analysis of the deposited data

How the results depend on the processing

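Direction was kept under all 18 alternatives by Prkdc (log2 fold change 0.22 to 0.79), Xrcc6 (0.13 to 0.28), Xrcc5 (−0.33 to −0.16), Xrcc4 (−0.48 to −0.28) and Dclre1c (0.02 to 0.27), with library size alone, which moves the median of all genes to −0.10, among them. No core gene passed under any alternative except Prkdc and Xrcc6 with DESeq2 without EGFR-DN replicate 3 (2 genes past the threshold, against 0). Paxx turned to 0.0063 with the stricter filter, 0.11 with the length offset, 0.0777, 0.0791 and 0.0798 without EGFR-DN replicate 3 (edgeR, DESeq2, length offset), and 0.0081 and 0.0071 without EGFR-WT replicates 1 and 2. Without EGFR-DN replicate 3, Lig4 turned to 0.0871 (0.0878 by DESeq2, 0.0967 with the length offset) and Nhej1 to 0.0046 (0.0064 and 0.0078), Polm turned to 0.20 without EGFR-DN replicate 1 and Poll to −0.0701 without EGFR-DN replicate 2. With 1 library left out, Lig4 ran from −0.818 to 0.0871, Paxx from −0.0831 to 0.0777, and Polm from −0.462 to 0.20. The cause of these turns was not tested. The median of the 10 ran from −0.18 with library size alone to 0.06, and over single libraries left out from −0.11 to 0.05. Genes past the threshold numbered 135 with DESeq2, 884 with DESeq2 and 15 with the length offset when EGFR-DN replicate 3 was also left out, 0 with limma-voom or the length offset, and 0 to 57 with 1 library left out (57 without EGFR-DN replicate 3, and 0 without each EGFR-WT library in turn). The adjusted p of Egfr was then 0.286, 0.261 and 0.229, with limma-voom 0.253 and with the length offset 0.174. With 1 library left out, the log2 ratio difference ran from −0.53 to −0.40 for Xrcc5/Xrcc6, −0.42 to 0.88 for Xrcc4/Lig4, −0.35 to −0.09 for Nhej1/Paxx, −0.18 to 0.83 for Poll/Polm and 0.30 to 0.52 for Prkdc/Dclre1c. Between replicates sharing a number, deviations from the group means correlated at −0.02, 0.05 and 0.06. EGFR-DN replicate 3 weighs on every EGFR-DN deviation, so these values cannot show whether such replicates shared a batch. With the replicate block 0 core genes and 1 gene in all passed. The sign-flip test of the Xrcc5/Xrcc6 ratio gave an exact p = 0.25, the smallest it can give with 3 libraries per group. Depth limits Lig4 and Polm most, with as few as 16 and 57 counts.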
